A study of Mus musculus with 93 samples.

Results

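The semaphorins, plexins and neuropilins, the ligands and receptors of the semaphorin guidance pathway, were followed in Hcn4-GFP+ and Tbx1-Cre, RFP+ cardiac progenitors of the mouse. Their members were all symbols of the count table with a class 3 to 7 semaphorin name, a plexin A to D name or a neuropilin name, which gave 31 of 24514 symbols: 20 semaphorins, 9 plexins and 2 neuropilins. RNA of 10 sorted cells per well was sequenced in 93 wells. Embryo cells came from Hcn4-GFP; Tbx1-Cre; Ai9 mice, dissected at E7.75 by the protocol and named E8.5 in the sample titles. Spheroid cells came from an embryonic stem cell line of the same 3 alleles, derived from blastocysts and sorted at day 5.5 of a differentiation. Growth factors of the activin, Bmp and Wnt families, alone or in combination, are listed for it only in general. Which of them the sequenced wells received is not stated. GFP is read from the Hcn4 allele, a marker of the first heart field, while RFP comes from the Ai9 reporter in every cell in which Tbx1-driven Cre acted or in whose ancestors it acted, so RFP records a history and not only current Tbx1 expression. All 4 groups carried all 3 alleles. The groups were embryo GFP+ (n = 5 libraries), embryo RFP+ (n = 4), spheroid GFP+ (n = 37 after a library with 6288 counts was left out) and spheroid RFP+ (n = 46). The labels tie no well to an embryo or to a differentiation, so n counts wells and p-values measure the spread between wells, which may be technical.

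Semaphorins are secreted or membrane-bound proteins that steer migrating cells and growing axons and vessels. Plexins are their signalling receptors and act on small GTPases inside the cell. Most class 3 semaphorins are secreted and bind a neuropilin, a co-receptor without a signalling domain of its own, which then engages a plexin A or plexin D1. Membrane-bound class 4 to 6 semaphorins bind plexins directly, and neuropilins also serve as co-receptors of vascular endothelial growth factor. In the developing heart the pathway is known for its roles in outflow tract septation, in the entry of neural crest cells and in vessel patterning.

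Nrp1 was called by edgeR in each of the 4 comparisons made here, and the sequence before the start of both neuropilin genes is shown so that their start regions can be set side by side. Both stretches are RefSeq sequence of GRCm38.p6 on the plus strand, and capitals mark every GC box, GGGCGG on either strand. The Nrp1 stretch, chr8:128358823-128359072, lies before the RefSeq start at 128359073 and within an intron of another annotated Nrp1 transcript. The Nrp2 stretch, chr1:62703067-62703284, ends where the first annotated exon begins, ahead of the RefSeq start at 62703317.
Nrp1: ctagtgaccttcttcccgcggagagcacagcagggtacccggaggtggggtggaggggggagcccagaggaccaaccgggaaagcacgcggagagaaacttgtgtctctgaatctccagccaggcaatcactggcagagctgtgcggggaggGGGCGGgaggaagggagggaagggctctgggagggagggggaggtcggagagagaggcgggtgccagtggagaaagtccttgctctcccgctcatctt
Nrp2: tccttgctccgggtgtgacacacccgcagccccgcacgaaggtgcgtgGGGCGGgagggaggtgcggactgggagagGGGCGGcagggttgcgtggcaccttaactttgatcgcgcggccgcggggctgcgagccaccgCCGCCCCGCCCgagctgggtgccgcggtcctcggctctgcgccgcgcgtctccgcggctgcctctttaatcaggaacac
The Nrp1 stretch held 1 GC box and was 64.4% G and C, and the Nrp2 stretch held 4, a pair of them overlapping by a base, and was 72.5% G and C. Neither held the T-box half-site AGGTGT, the GATA motif AGATAA or the NK2 motif TNAAGTG on either strand. Over all 32851 RefSeq windows of 250 bases before a start, 32.7% held the GC box, 11.8% AGGTGT, 9.99% AGATAA and 10.1% TNAAGTG. Of the 37 windows of the 26 members that had a window in this set, 27 held the GC box, 5 the T-box half-site, 2 the NK2 motif and 0 the GATA motif.

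Kept libraries held 712732 to 2525460 counts in embryo GFP+, 1246546 to 1479957 in embryo RFP+, 828193 to 4371849 in spheroid GFP+ and 445071 to 5658882 in spheroid RFP+ cells. Embryo GFP+ libraries stood apart, with counts for 6189 to 8302 genes against 10263 to 13052 in embryo RFP+ libraries and a correlation of at most 0.764 between any pair of them, on log2(CPM + 1) over all genes, where embryo RFP+ pairs reached at least 0.904. Hcn4 was at 1.04 to 32.8 CPM in embryo GFP+ and 0 to 1.41 in embryo RFP+ cells, and Tbx1 was at 0 in every embryo GFP+ library and at 0 to 8.45 CPM in embryo RFP+ cells. In spheroids Hcn4 was at 1.22 to 17.2 CPM in GFP+ and 0 to 2.59 in RFP+ cells, and Tbx1 at 0 to 0.663 and 0 to 8.45 CPM. In 7 pairs of spheroid RFP+ wells of plate columns 3 and 4 that share a row, libraries correlated at 0.976 to 0.994, above every other RFP+ pair. Their counts differed by more than sampling noise (chi-square per degree of freedom 1.37 to 2.39, against at least 2.68 in other pairs). This does not decide whether the wells of a pair hold separate cells or are repeat libraries, and the labels do not say. They were counted separately, and summing the pairs would leave 39 spheroid RFP+ libraries. Results that change when the pairs are summed are given with that value. Spheroid RFP+ wells lay in plate columns 1 to 6 and spheroid GFP+ wells in columns 7 to 11, and the sort therefore cannot be told apart from the position on the plate.

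Members differed in how often they were seen at all. Embryo GFP+ libraries held counts for 7 to 12 members (median 9) and embryo RFP+ libraries for 19 to 27 (median 22.5), and after every embryo library was thinned to 712732 counts the medians were 9 and 21. The lower number moved with the lower number of all genes detected in these libraries, and its part was not tested. Spheroid libraries held counts for 17 to 27 members in GFP+ (median 22) and 16 to 26 in RFP+ cells (median 23), with medians of 19 and 19.5 at 445071 counts each. Nrp1 alone was counted in all 5 embryo GFP+ libraries, 13 members had no count in any of them, and 17 were counted in all 4 embryo RFP+ libraries. The heat map of all members shows this sparse pattern beside the filled columns of the other groups.

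**Figure D1:**
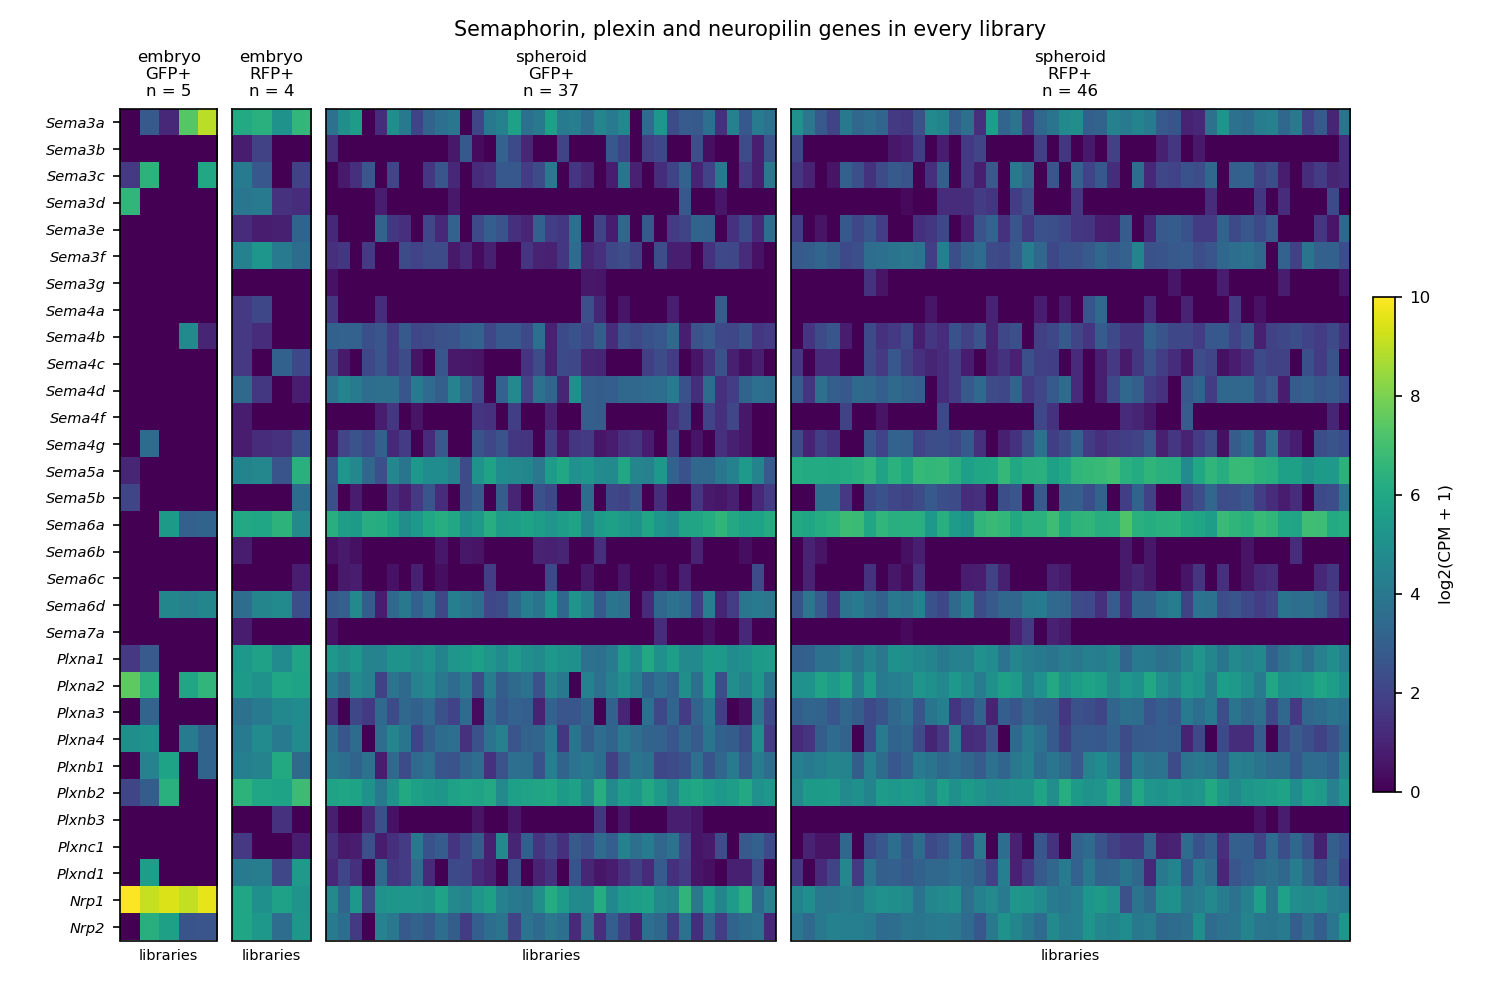
Heat map of the 31 members (vertical axis) in 92 libraries (horizontal axis, grouped by population; 1 column per library), coloured by log2(CPM + 1). Nrp1 is the brightest line in the 5 embryo GFP+ libraries, where 13 members have no count, and Sema5a, Sema6a and Plxnb2 form continuous lines in both spheroid populations.

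Levels of different genes were compared as CPM per kb of exon. Nrp1 led embryo GFP+ cells at 73.3 ± 19.2 CPM per kb (SD, n = 5), ahead of Sema3a at 9.66 ± 15.6. The next members, Plxna2 at 4.91 ± 3.87 and Sema3c at 4.28 ± 5.86, did not differ from Sema3a or from each other beyond their spread. In embryo RFP+ cells Plxnb2 was first at 10.3 ± 3.50 CPM per kb (SD, n = 4), followed by Sema6a at 6.79 ± 2.96, Sema3a at 5.06 ± 1.99, Plxna1 at 4.83 ± 1.45 and Nrp1 at 4.52 ± 1.35, and from Sema6a on each of these neighbours lay within the spread of the next. Plxnb2 at 6.12 ± 1.81 and Sema6a at 5.999 ± 1.80 CPM per kb shared the top in spheroid GFP+ cells (n = 37), with Plxna1 at 3.65 ± 1.17 and Nrp1 at 3.59 ± 2.04 behind them. In spheroid RFP+ cells (n = 46) Sema6a led at 9.30 ± 2.67 CPM per kb, then Plxnb2 at 5.07 ± 1.56, Sema5a at 4.01 ± 1.15 and Nrp1 at 2.42 ± 1.05. A neuropilin was thus first of the members in 1 group only, and Plxnb2 or Sema6a was first in the other 3.

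The first comparison set RFP+ against GFP+ cells within the embryo, which asks how the pathway differed between progenitors of the heart fields in vivo. Nrp1, the co-receptor for Sema3a and for vascular endothelial growth factor, was far higher in GFP+ cells, and Sema3f, a secreted ligand of Nrp2, was counted only in RFP+ cells. By edgeR's quasi-likelihood test with Benjamini-Hochberg adjustment over all genes, 2 of the 13 members that passed the filter on low counts had an adjusted p under 0.1, where 10.1% of all 8503 genes tested did. Of these, 1 was higher in RFP+ cells (background 6.21%) and 1 in GFP+ cells (background 3.88%). In whole-well RNA, fewer cells of a type and less RNA per cell cannot be told apart.

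Nrp1 stood at 995, 550.8, 714.8, 540.2 and 784.3 CPM in the 5 embryo GFP+ libraries. In the 4 embryo RFP+ libraries it stood at 58.9, 31.2, 51.8 and 35.2 CPM. The lowest GFP+ library was above the highest RFP+ library, and the means were 717 ± 188 (SD, n = 5) and 44.3 ± 13.2 (SD, n = 4). On the log2 scale Nrp1 fell by 4.07 ± 0.34 (SE) from GFP+ to RFP+ cells, with an edgeR adjusted p of 2.1e-05. The exact two-sided permutation test gave p = 0.00794, the smallest that 126 splits allow, and an adjusted p of 0.0909. Without any 1 library the log2 fold change ranged from -4.23 to -3.92.
Nrp2, the co-receptor that prefers Sema3f, did not follow. Its GFP+ values were 0, 78.8, 51.1, 5.06 and 5.20 CPM and its RFP+ values 58.9, 38.8, 11.04 and 38.7 CPM, so the populations overlapped throughout. The log2 fold change was 0.33 ± 1.47 (SE), with an edgeR adjusted p of 0.978, an interval too wide to show likeness. Both neuropilins thus carried different values in the same wells: the GFP+ library with the most Nrp1 had no count for Nrp2.

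Cell type markers also differed between these populations. The summed level of 8 cardiomyocyte genes was 10380 to 30240 CPM in embryo GFP+ and 886 to 1712 CPM in embryo RFP+ cells, and all 7 that could be tested fell from GFP+ to RFP+ cells, Tnnt2 and Myl7 among them. The part of these genes, and of the marker lists that follow, in the Nrp1 difference was not tested. Endothelium is known to carry Nrp1 as well. The 10 endothelial genes summed to 3.24 to 90.0 CPM in GFP+ and 216 to 473.8 CPM in RFP+ cells, and 6 of them, Pecam1 and Cdh5 included, were at 0 in every GFP+ library. Of 6 neural crest genes 4 were at 0 in every GFP+ library, and the list summed to 0 to 189.9 CPM there and to 38.7 to 96.2 in RFP+ cells. The endoderm genes were all at 0 in GFP+ and summed to 4.22 to 204.7 CPM in RFP+ cells, and the 6 neural genes to 0 to 7.56 and 19.0 to 76.1 CPM. The 7 blood genes reached 1.04 CPM at most in GFP+ cells and 1137 in an RFP+ library. The 8 second heart field and pharyngeal genes summed to 52.8 to 283 CPM in GFP+ and 192 to 333 in RFP+ cells and overlapped. Of the 5 tested, only Six2 and Foxc2 were called, as higher in RFP+ cells.

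Among the ligands, Sema3f had no count in any of the 5 embryo GFP+ libraries and stood at 20.1, 36.7, 16.1 and 10.6 CPM in RFP+ cells. Set against a floor of 3 counts per GFP+ library, which averages 2.53 CPM, its level in RFP+ cells was at least 8.24-fold higher, with an edgeR adjusted p of 0.0125. The floor covers counting error only, since the reads carry no molecular identifiers.
Sema5a, a membrane-bound semaphorin with thrombospondin repeats that binds plexin A1 and A3, had a single count in 1 GFP+ library, at 1.08 CPM, and 21.5, 23.5, 5.10 and 79.6 CPM in RFP+ cells. The populations did not overlap, although RFP+ wells differed widely among themselves. The ratio of the pooled counts was 243.5 with an exact 95% counting interval from 43.2 to 9671. That interval treats reads as independent and leaves out the spread between wells, so it does not bound the difference between populations. Sema5a did not pass the filter of the edgeR test, except without RFP+ well G12, when it passed and was called, and by permutation the difference on log2(CPM + 2) was 3.48 (exact p = 0.00794, adjusted p = 0.0909 over all genes).
Sema3a, the repellent ligand of Nrp1, spread most within GFP+ cells, at 0, 5.96, 1.22, 162 and 500.4 CPM, against 68.9, 80.3, 33.1 and 98.6 CPM in RFP+ cells. A pair of GFP+ wells lay above all RFP+ wells and the other 3 below all of them. No difference was called (log2 fold change -1.02 ± 1.44, edgeR adjusted p = 0.887), and on log2(CPM + 2) the difference pointed the other way (1.67, adjusted p = 0.627 by the exact permutation test).
Sema3c and Sema3d, secreted ligands known from outflow tract and venous development, were high in few GFP+ wells. Sema3c was at 2.16, 88.2, 0, 0 and 62.4 CPM in GFP+ and 15.8, 5.54, 0 and 2.82 CPM in RFP+ cells. Sema3d was at 96.1 CPM in 1 GFP+ well and 0 in the other 4, and at 14.4, 15.9, 1.70 and 1.41 CPM in RFP+ cells. Neither passed the filter of the edgeR test, and neither was called by the permutation test (exact, adjusted p = 0.817 and 0.832).
The membrane-bound Sema6a, a ligand of plexin A2 and A4, was at 0, 0, 42.6, 7.36 and 8.32 CPM in GFP+ and 65.4, 59.5, 88.3 and 25.3 CPM in RFP+ cells. All but 1 GFP+ well lay below every RFP+ well. Its log2 fold change of 2.24 ± 1.59 was not called (edgeR adjusted p = 0.632). Sema6d, a ligand of plexin A1 with known effects in heart tube explants, was at 0, 0, 23.1, 19.3 and 22.9 CPM in GFP+ and 10.8, 22.2, 25.5 and 4.22 CPM in RFP+ cells, with overlapping values (0.17 ± 1.57, edgeR adjusted p = 0.990).

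The receptors were split. Plxna1 was at 2.16, 6.39, 0, 0 and 0 CPM in embryo GFP+ and 39.5, 51.9, 27.2 and 56.3 CPM in embryo RFP+ cells. Plxna3 was at 8.52 CPM in 1 GFP+ well and 0 in the other 4, and at 12.2, 15.9, 24.6 and 28.2 CPM in RFP+ cells. For both of these plexins every RFP+ well lay above every GFP+ well, yet the edgeR test did not call them (log2 fold change 4.53 ± 1.67, adjusted p = 0.1497 for Plxna1; 3.38 ± 1.60, adjusted p = 0.328 for Plxna3). Without the GFP+ library of well B12, which held most of their GFP+ counts, both were called. By permutation Plxna1 was called (difference of 3.84 on log2(CPM + 2), exact p = 0.00794, adjusted p = 0.0909) and Plxna3 was not (2.93, adjusted p = 0.127).
Plxna2, in contrast, was at 183.5, 83.5, 0, 59.8 and 94.7 CPM in GFP+ and 43.1, 34.6, 59.4 and 54.9 CPM in RFP+ cells. In 4 of 5 GFP+ wells it was above all RFP+ wells, and in the fifth it was not counted, so the log2 fold change of -0.84 ± 1.13 was not called (edgeR adjusted p = 0.876), and the mean difference on log2(CPM + 2) was 0.12. Plxna4 was at 30.2, 33.7, 0, 16.6 and 8.32 CPM in GFP+ and 15.8, 27.7, 16.98 and 27.5 CPM in RFP+ cells and overlapped (0.29 ± 1.35, adjusted p = 0.979 by edgeR).
Of the plexin B receptors of class 4 semaphorins, Plxnb1 was at 0, 20.5, 54.7, 0 and 8.32 CPM in GFP+ and 18.7, 21.5, 66.2 and 9.86 CPM in RFP+ cells. Plxnb2 was at 3.24, 6.82, 80.2, 0 and 0 CPM in GFP+ and 88.3, 60.2, 55.2 and 113 CPM in RFP+ cells. Well C12 held the highest GFP+ value of both, and for Plxnb2 it alone reached the RFP+ range. Neither was called (edgeR adjusted p = 0.951 and 0.690), and Plxnb2 was called when well C12 was left out.
Plxnd1, a receptor of Sema3e known from endothelium, was at 48.1 CPM in 1 GFP+ well and 0 in the other 4, and at 16.5, 17.3, 3.40 and 41.5 CPM in RFP+ cells. The single GFP+ well lay above all RFP+ wells, and no difference was called (0.99 ± 1.89, edgeR adjusted p = 0.926).

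Because 17 of the members with embryo counts did not pass the edgeR filter, all 30 members with any embryo count were also tested by exact permutation over all 15111 genes with a count. This called 5 members, with Sema3e, Sema3f, Sema5a and Plxna1 raised in RFP+ cells and Nrp1 in GFP+ cells, where 8.73% of all genes were called. Sema3e, a ligand of Plxnd1, was at 0 in all GFP+ wells. In RFP+ wells it was at 1.44, 0.692, 0.849 and 8.45 CPM, which is 1 to 12 counts. Its RFP+ mean of 2.86 CPM was 1.13 times the floor of 2.53 CPM, which only the well at 8.45 CPM exceeded. In 5 members, these 4 without Nrp1 plus Plxna3, every RFP+ well was above every GFP+ well, against 11.8% of all genes, and in 1 member, Nrp1, the reverse held, against 2.04%. The shares of the 30 members in these counts were 16.7%, 16.7% and 3.33%, which differ from the background by a few genes. The plot of values by library shows Nrp1 and Plxna1 moving in opposite directions between these populations.

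**Figure D2:**
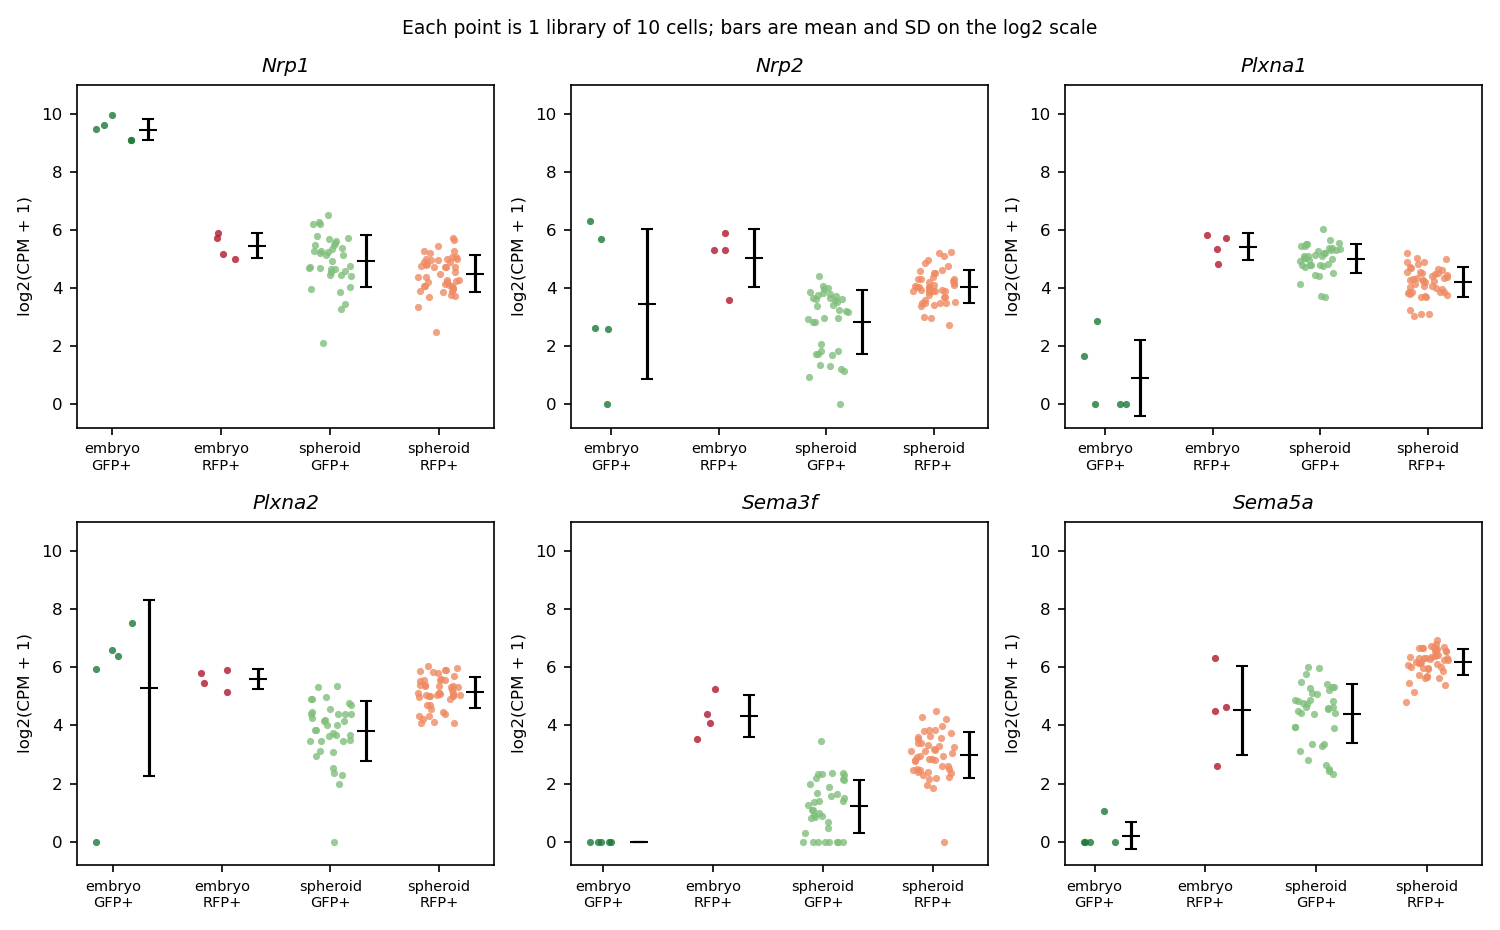
Values of 6 members in every library (vertical axis, log2(CPM + 1)) in the 4 groups (horizontal axis); each point is 1 library of 10 cells, and bars give the mean and SD on the log2 scale. Nrp1 separates embryo GFP+ libraries (540.2 to 995 CPM) from the other 3 groups, and Sema5a is highest in spheroid RFP+ libraries (mean 75.0 CPM).

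The same comparison in spheroids asks how the pathway differed between populations in vitro. RFP+ cells held more Sema5a, Sema6a, Plxna2, Plxna3, Plxnb1, Plxnd1 and Nrp2, and GFP+ cells held more Sema4d, Plxna1, Plxna4, Plxnb2 and Nrp1. By edgeR 12 of the 14 members that passed the filter were called, of which 7 were the higher in RFP+ and the other 5 in GFP+ cells. Since 78.0% of all 9990 genes tested were called (38.4% towards RFP+, 39.6% towards GFP+ cells), the number of members called is not a result about the members, and sizes are more informative. Beyond a fold change of 1.5 edgeR's test against that threshold called 5 members, 4 higher in RFP+ cells (Sema5a, Plxna2, Plxnd1 and Nrp2, background 12.1%) and 1 higher in GFP+ cells (Plxna1, background 18.8%), with a background of 30.9% in either direction. Log2 fold changes had a median size of 0.71 over the 14 members and of 0.46 over all genes.

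Spheroid Sema5a ranged from 4.02 to 62.9 CPM (median 23.7) in GFP+ and from 27.3 to 122 CPM (median 76.5) in RFP+ cells. It was above the highest GFP+ well in 33 of 46 RFP+ wells, and its RFP+ mean was higher in all 8 plate rows. With means of 25.0 ± 15.5 (SD, n = 37) and 75.0 ± 21.4 CPM (SD, n = 46), it rose by 1.58 ± 0.15 on the log2 scale (edgeR adjusted p = 4.8e-17).
Sema6a ranged from 23.8 to 91.4 CPM (median 51.9) in GFP+ and 34.8 to 149 CPM (median 79.8) in RFP+ cells and was higher by 0.65 ± 0.09 in RFP+ cells (edgeR adjusted p = 1.9e-09). Most RFP+ wells lay within the GFP+ range. Sema4d, a ligand of Plxnb1, went the other way, from 0 to 31.1 CPM (median 9.42) in GFP+ and 0 to 11.9 CPM (median 6.03) in RFP+ cells, a log2 fold change of -0.87 ± 0.24 (edgeR adjusted p = 0.00064). The highest 10 GFP+ wells exceeded every RFP+ well, and the rest overlapped.
Sema3a (medians 12.6 CPM in GFP+ and 10.9 CPM in RFP+ cells) and Sema6d (10.2 and 8.43 CPM) passed the filter and were not called, with edgeR adjusted p of 0.320 and 0.109. Their log2 fold changes were -0.29 ± 0.27 and -0.40 ± 0.23.

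Among spheroid receptors, Plxnd1 moved furthest. It ranged from 0 to 10.7 CPM (median 1.37) in GFP+ and 0 to 24.0 CPM (median 8.15) in RFP+ cells, and 13 RFP+ wells exceeded every GFP+ well. The log2 fold change was 1.99 ± 0.29 (edgeR adjusted p = 1.8e-09). Summing the 7 well pairs left Plxnd1 under the filter of the edgeR test, while the permutation test on those sums, chosen after seeing the data, still gave a difference of 1.36 on log2(CPM + 2) with an adjusted p of 3.9e-05.
Plxna1 and Plxna2, partners of the neuropilins, moved apart. Plxna1 ranged from 12.0 to 64.2 CPM (median 33.4) in GFP+ and 7.20 to 36 CPM (median 18.2) in RFP+ cells, a log2 fold change of -0.81 ± 0.11 (edgeR adjusted p = 4.8e-10). Plxna2 ranged from 0 to 40.4 CPM (median 15.1) in GFP+ and 15.8 to 65.2 CPM (median 33.6) in RFP+ cells and was higher by 1.19 ± 0.16 in RFP+ cells (edgeR adjusted p = 2.0e-10). In all 8 plate rows the GFP+ mean of Plxna1 was the higher and the RFP+ mean of Plxna2 was the higher.
Plxna3 (medians 5.28 CPM in GFP+ and 7.61 CPM in RFP+ cells) and Plxna4 (8.27 and 4.74 CPM) also moved apart, with log2 fold changes of 0.56 ± 0.24 and -0.78 ± 0.24 (edgeR adjusted p = 0.030 and 0.0027). An antisense gene of Plxna4 is part of the count table, and as the counting is not stated to use strand, reads of the pair cannot be told apart. Plxnb1 (9.80 and 12.8 CPM) rose by 0.53 ± 0.16 (edgeR adjusted p = 0.0029), while Plxnb2 (48.7 and 37.4 CPM) fell by 0.26 ± 0.10 (edgeR adjusted p = 0.014). The populations overlapped for each of these 4 genes, with 8 RFP+ wells above every GFP+ well for Plxnb1 and 3 for Plxna3, and 3 GFP+ wells above every RFP+ well for Plxna4 and 1 for Plxnb2. Plxnb2 was not called with one fit over the 4 groups (log2 fold change -0.24).
The neuropilins crossed. Nrp1 ranged from 3.32 to 91.4 CPM (median 33.8) in GFP+ and 4.63 to 51.6 CPM (median 22.2) in RFP+ cells, a log2 fold change of -0.56 ± 0.16 (edgeR adjusted p = 0.00090). Nrp2 ranged from 0 to 20.6 CPM (median 8.34) in GFP+ and 5.62 to 37.2 CPM (median 15.5) in RFP+ cells and rose by 1.06 ± 0.19 (edgeR adjusted p = 3.7e-07). All 8 plate rows had the higher mean of Nrp1 in GFP+ and of Nrp2 in RFP+ wells, although the wells overlapped for both genes.

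Of all 31 members, 19 were called by the permutation test in spheroids (100000 resamples, adjusted over 21826 genes with a count), where 53.1% of all genes were called. Of those that had not passed the edgeR filter, Sema3f had the widest difference, from 0 to 10.1 CPM (median 1.42) in GFP+ to 0 to 21.7 CPM (median 6.71) in RFP+ cells, 1.37 on log2(CPM + 2) with an adjusted p of 3.7e-05, the smallest these resamples allow. Sema3f was thereby higher in RFP+ cells in both sources. Sema3d, Sema4g and Sema5b also leaned to RFP+ and Sema3b, Sema4b and Plxnb3 to GFP+ spheroid cells, all 6 called, each with group means of at most 4.90 CPM and a difference of at most 0.52 on log2(CPM + 2). With the 7 pairs summed, 18 were called, and Sema3b was not (adjusted p = 0.127).
Markers moved here too. The 6 pluripotency genes summed to 72.5 to 1599 CPM in spheroid GFP+ and 5.17 to 547.7 CPM in RFP+ cells, and all 5 that were tested were higher in GFP+ cells. The 7 endoderm genes summed to 135.1 to 385.4 and 35.1 to 164 CPM, with Epcam and Cdh1 higher in GFP+ and Foxa2 higher in RFP+ cells. Of the 8 second heart field and pharyngeal genes, 5 of 6 tested were higher in RFP+ cells, and Isl1 was called as higher in GFP+ cells. Their sums were 30.9 to 208 CPM in GFP+ and 125.4 to 256.6 CPM in RFP+ cells. The endothelial genes summed to 10.1 to 71.6 and 3.36 to 226 CPM, and while Cdh5 had a mean of 0.208 CPM in GFP+ and 1.33 CPM in RFP+ cells, Pecam1 had means of 3.26 and 0.845 CPM. Egfl7 alone of this list was tested and was higher in RFP+ cells. The neural genes summed to 13.6 to 116.8 and 35.1 to 105.9 CPM, the neural crest genes to 21.9 to 94.1 and 11.7 to 110 CPM, the cardiomyocyte genes to 27.0 to 1218 and 13.1 to 110 CPM, and the blood genes to at most 12.5 and 13.1 CPM. All 3 tested cardiomyocyte genes (Myl7, Ttn and Tnni1) and the neural crest gene Ets1 were higher in GFP+ cells. The 2 tested neural genes, Otx2 and Tubb3, were higher in RFP+ cells. The part of all these marker lists in the members' differences was not tested.

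**Figure D3:**
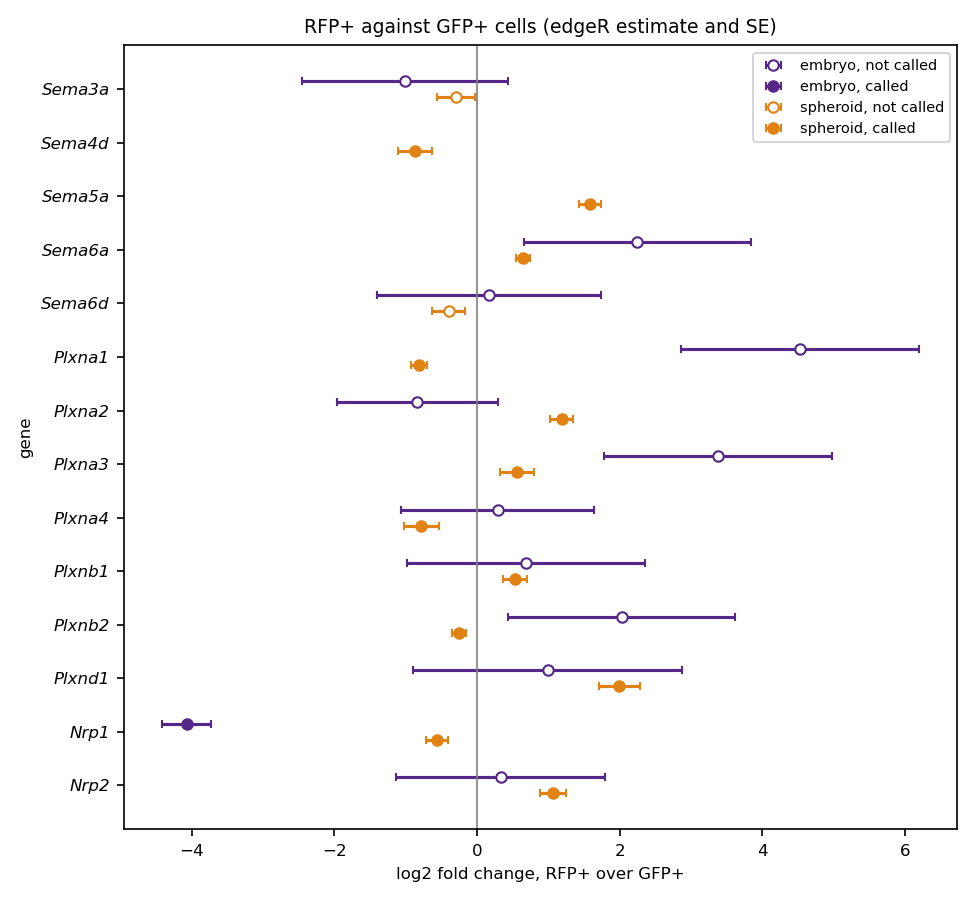
Log2 fold changes of RFP+ over GFP+ cells (horizontal axis) for members that passed the edgeR filter (vertical axis), with the embryo in purple and spheroids in orange; bars are SE, filled points are called and open points are not, and a member with 3 counts or fewer in a group is not drawn. Nrp1 sits at -4.07 in the embryo and -0.56 in spheroids, and the embryo bars of most other members cross the spheroid points.

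Whether the difference between populations was the same in embryo and spheroid was tested by dividing the difference of the log2 fold changes by the error of both fits, for the 12 members tested in both sources. Nrp1 differed: its fold change was less negative in spheroids by 3.51 ± 0.38 (SE), with an adjusted p of 0.010 from the pair of edgeR fits, where 5.28% of all 8195 genes were called. For Plxna1 the estimates had opposite signs, 4.53 in the embryo and -0.81 in spheroids, and the difference of -5.34 ± 1.67 did not pass (adjusted p = 0.199 from the edgeR fits). Plxna2 also had opposite signs, -0.84 and 1.19, with a difference of 2.03 ± 1.14 (adjusted p = 0.615), and so did Plxnb2, 2.03 and -0.26 (difference -2.28 ± 1.59, adjusted p = 0.731). The other 8 members, of which Plxna4 (0.29 and -0.78) and Sema6d (0.17 and -0.40) had opposite signs too, had an adjusted p between 0.623 and 0.993. The wide embryo errors leave room for differences of several log2 units in either direction.

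Embryo and spheroid cells of the same population were then compared, which asks how the stem cell-derived cells stood against their counterparts in the embryo. In GFP+ cells, 12 of the 17 members that passed the filter were called by edgeR, against 68.4% of all 11953 genes. Of them, 7 were higher in spheroids (background 48.1%) and 5 in the embryo (background 20.2%). The median log2 fold change of all genes was 0.65 towards spheroids and moved to 0.47 with another scaling, so values are best read against it. The embryo wells lay in plate columns 11 and 12, so source cannot be told apart from plate position either, and both comparisons between sources reuse the libraries of the comparisons above.
Nrp1 again led: no spheroid GFP+ well, of 3.32 to 91.4 CPM, came near the embryo's 540.2 to 995 CPM, and the log2 fold change of spheroid over embryo was -4.25 ± 0.27 (edgeR adjusted p = 6.6e-19). Plxna2 (84.3 ± 66.4 CPM in the embryo, 16.0 ± 9.53 in spheroids) and Nrp2 (28.0 ± 35.2 and 8.01 ± 5.23 CPM) were also higher in the embryo, by log2 fold changes of -2.29 ± 0.43 and -1.73 ± 0.53 (edgeR adjusted p = 1.2e-05 and 0.0044). Nrp2 was no longer called without embryo GFP+ library B12 (log2 fold change -0.85). Leaving out 1 embryo library added calls for Plxna3 (without B12), Plxna4 (without C12 or E12), Plxnb1 (without A12 or D12), Sema4b (without D12) and Plxnd1 (without any but B12). Sema3a (-3.01 ± 0.60) and Sema3c (-3.15 ± 0.73) were higher in the embryo on the strength of a pair of wells each, with the other 3 wells at or below the spheroid mean. Without well E12 Sema3a moved to -1.36, and without well B12 Sema3c moved to -2.25.
Plxna1 showed the reverse: all 37 spheroid GFP+ wells, from 12.0 to 64.2 CPM, exceeded the embryo maximum of 6.39 CPM (4.07 ± 0.51, edgeR adjusted p = 2.5e-09). Without well B12, which held most of its embryo counts, the estimate was 6.10. All 37 also exceeded the embryo maximum of Sema5a, and the ratio of its pooled counts, 1862 to 1, was 190 after scaling with an exact 95% counting interval from 34.1 to 7519. This interval, too, leaves out the spread between wells. Sema4d and Plxnc1, the receptor of Sema7a, had no count in the embryo GFP+ wells. Against the floor of 3 counts per embryo library, Sema4d was at least 4.03-fold and Plxnc1 at least 2.29-fold higher in spheroids (edgeR adjusted p = 4.4e-07 and 8.9e-05). These bounds cover counting error only. Embryo GFP+ libraries held counts for 6189 to 8302 genes and spheroid GFP+ libraries for 12837 to 14671. The spheroid mean of Sema3e was 1.33 times that floor of 2.53 CPM, and its median of 2.11 CPM lay below it. Sema6a and Plxnb2 were higher in spheroids by 2.36 ± 0.49 and 1.55 ± 0.53 on the log2 scale, which became 3.83 and 4.14 without embryo well C12.

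In RFP+ cells, 12 of the 20 members that passed the filter were called, against 42.6% of all 11147 genes. Here 10 were higher in the embryo (background 20.1%) and 2 in spheroids (background 22.5%), and the median log2 fold change was -0.88 over these 20 members and 0.04 over all genes tested. The 10 were both neuropilins, 6 of the 9 plexins (Plxna1, Plxna3, Plxna4, Plxnb1, Plxnb2 and Plxnd1) and the secreted ligands Sema3a and Sema3f. Members had been chosen by name, and these libraries had been analysed before, so no test of the family was made.
Of the called members Sema3a fell furthest, from 70.2 ± 27.6 CPM (SD, n = 4) in the embryo to 12.8 ± 10.0 CPM (SD, n = 46) in spheroids, a log2 fold change of -2.46 ± 0.41 (edgeR adjusted p = 2.4e-06). Sema3f went from 20.9 ± 11.2 to 7.93 ± 4.50 CPM (-1.41 ± 0.38, edgeR adjusted p = 0.0026). Both secreted ligands thus stood lower in the cultured RFP+ cells. Sema3d did not pass the filter, with RFP+ means of 8.35 CPM in the embryo and 0.574 CPM in spheroids. Without the filter its log2 fold change was -3.78 (edgeR adjusted p = 0.00021). In GFP+ cells Sema3d, also under the filter, had means of 19.2 CPM in the embryo, all from 1 well, and 0.199 CPM in spheroids.
The plexins A1, A3, A4, B1, B2 and D1 had log2 fold changes between -1.998 and -1.02, with edgeR adjusted p from 4.2e-05 to 0.041. Plxnb1 and Plxnd1 each depended on 1 embryo library: without well G12 Plxnb1 moved to -0.35, and without well H11 Plxnd1 moved to -0.53, and neither was then called. Nrp1 (44.3 ± 13.2 and 23.7 ± 10.3 CPM) and Nrp2 (36.9 ± 19.7 and 16.8 ± 7.36 CPM) were lower in spheroids by similar amounts, with log2 fold changes of -0.91 ± 0.28 and -1.14 ± 0.29 (edgeR adjusted p = 0.0094 and 0.0013).
Sema5a and Plxnc1 were the exceptions. Sema5a rose by 1.18 ± 0.29 in spheroids (edgeR adjusted p = 0.0011), where 18 of 46 wells exceeded the highest embryo well, and by 2.13 without embryo well H11. Plxnc1 rose by 2.64 ± 0.99 (adjusted p = 0.031 by edgeR) from 4 counts in all embryo RFP+ wells, a call lost without well G11 or without well G12. Plxna2 and Sema6a were not called, with log2 fold changes of -0.40 ± 0.26 and 0.45 ± 0.23, and Sema6a was called without well G12, as were Sema4d without well F12 and Sema5b and Sema6d without well H11.
Marker sums moved between sources as well. Cardiomyocyte genes fell in both populations, all 7 tested in GFP+ and all 5 tested in RFP+ cells being lower in spheroids, and 6 of 7 tested endothelial genes were lower in spheroid RFP+ cells, Cdh5 by 2.55 ± 0.87 on the log2 scale (edgeR adjusted p = 0.018). The 3 tested endothelial genes split in GFP+ cells, with Pecam1 higher and Tek lower in spheroids. All 3 tested endoderm genes and all 3 tested neural genes were higher in spheroid than in embryo GFP+ cells, while in RFP+ cells the 5 tested endoderm genes split (Foxa2 higher and Epcam lower in spheroids) and so did the 4 tested neural genes (Sox1 and Otx2 higher, Pax6 lower). The 6 pluripotency genes summed to at most 0.426 CPM in embryo GFP+ and 3.59 CPM in embryo RFP+ cells. Their part in the members' differences was not tested.

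**Figure D4:**
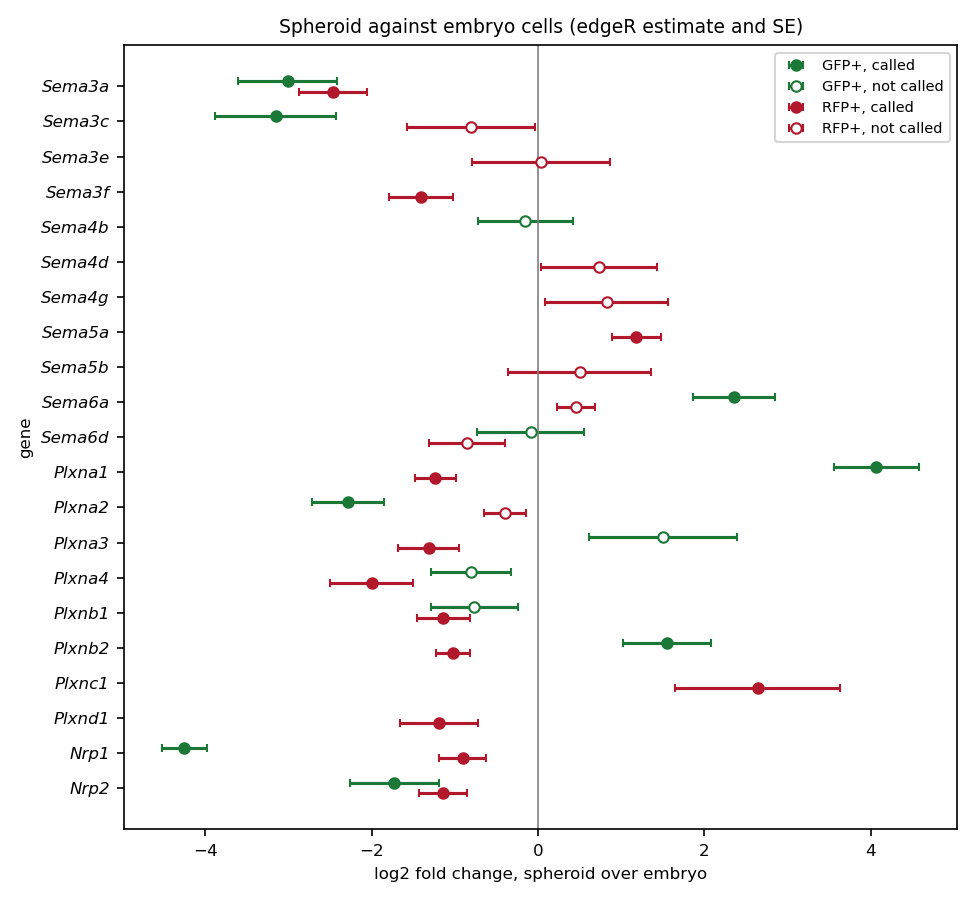
Log2 fold changes of spheroid over embryo cells (horizontal axis) for members that passed the edgeR filter (vertical axis), with GFP+ cells in green and RFP+ cells in red; bars are SE, filled points are called and open points are not, and a member with 3 counts or fewer in a group is not drawn. In RFP+ cells most points lie left of 0, and in GFP+ cells Nrp1 (-4.25) and Plxna1 (4.07) lie furthest apart.

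Of the other members, Sema3g, Sema4f, Sema6b, Sema6c, Sema7a and Plxnb3 reached at most 1.01 mean CPM in any group, and Sema3g had no count in the embryo. Sema3b, Sema4a, Sema4b, Sema4c, Sema4g, Sema5b, Sema3e and Plxnc1 stayed at or below 5.79 mean CPM in every group, with Plxnc1 in spheroid GFP+ cells at the top. Sema4b reached 26.7 CPM in 1 embryo GFP+ well and Sema4g 10.7 CPM in another. Values of these members rest on a few counts per well.

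Of 51 co-receptors and intracellular partners of plexins and neuropilins, 35 were tested in the embryo and 38 in spheroids. In the embryo edgeR called 3 as higher in RFP+ and 2 as higher in GFP+ cells (background 6.21% and 3.88%), and in spheroids it called 12 and 19 (background 38.4% and 39.6%), with a median log2 fold change of 0.16 (all genes 0.09) and -0.17 (all genes -0.01). The genes called in both were Dpysl2, Cfl1 and Rhoa. Cfl1, the actin-severing cofilin at the end of the pathway, was higher in RFP+ cells in both, with means of 973 and 1734 CPM in embryo and 967 and 1630 CPM in spheroid GFP+ and RFP+ cells (log2 fold changes 0.79 ± 0.22 and 0.77 ± 0.04). Rhoa, a GTPase in plexin B signalling, was lower in RFP+ cells in both (436.8 and 204 CPM; 249 and 201 CPM; -1.16 ± 0.34 and -0.30 ± 0.04). Dpysl2, the collapsin response mediator downstream of Sema3a, changed sign: 739 and 339 CPM in embryo and 243 and 483.8 CPM in spheroid GFP+ and RFP+ cells, with log2 fold changes of -1.18 ± 0.25 and 1.01 ± 0.06. The edgeR adjusted p of these 3 genes in the embryo were 0.041 for Cfl1, 0.059 for Rhoa and 0.011 for Dpysl2. Kdr, the vascular endothelial growth factor receptor that pairs with neuropilins, was at a mean of 6.21 CPM in embryo GFP+ cells, where Nrp1 was at its highest, and at 54.3 CPM in embryo RFP+ cells, with no call between them (edgeR adjusted p = 0.516). In spheroids Kdr was called as higher in RFP+ cells, with means of 1.23 CPM in GFP+ and 16.0 CPM in RFP+ cells (log2 fold change 3.59 ± 0.34, edgeR adjusted p = 1.4e-16). Between sources 22 partners were higher in spheroids and 9 in the embryo among 43 tested in GFP+ cells (background 48.1% and 20.2%), and 8 and 9 among 42 tested in RFP+ cells (background 22.5% and 20.1%). These counts lie near the background and are not a result about the partners.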

How the data were processed

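The authors trimmed reads with Trimmomatic 0.36, mapped them to mm10 with HISAT2 2.0.4, counted them with featureCounts 1.5.2 and deposited whole-number counts per gene symbol for 93 libraries, without normalization. Groups were taken from the labels. The members and lists were chosen with earlier results of these data known. One spheroid GFP+ library under 100000 counts was left out. Counts were compared with edgeR 4.0.16 in R 4.3.3: TMM scaling, filterByExpr (minimum count 10, total 15, proportion 0.7) and the quasi-likelihood F-test, with Benjamini-Hochberg adjustment over all genes tested and calls at an adjusted p under 0.1, the study's threshold. The SE of a log2 fold change is its Fisher information error times the root of the quasi-likelihood dispersion, or, with no counts in a group, its size over the root of F. The difference between sources used 7 degrees of freedom. Permutation tests (two-sided; exact in the embryo, 100000 resamples in spheroids) used mean log2(CPM + 2) of every gene with a count. CPM are TMM-scaled. Exon lengths came from GENCODE M21 (GRCm38, the assembly of mm10), which held 96.79% of the symbols. Members with a mean of at least 10 CPM in a group, or called, are given in full, as are the partners called in both sources. Depth limits what can be said of members at a few counts. Alternatives covered DESeq2 1.42.0, limma 3.58.1 voom, other scalings, filters and pseudocounts, summed well pairs, plate row and left-out embryo libraries. Scripts were tested on simulated data.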

Additional observations from a re-analysis of the deposited data

Results flagged for a closer look

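In 6 of the 32 groups of members and embryo libraries examined, 1 library lay far from the others by Dixon's criterion, where chance gives about 1 in 20. All 6 were in embryo GFP+ cells, and in each the library was the highest. Sema3d stood at 96.1 CPM and Sema5a at 1.08 CPM, a single count, in well A12. Plxna3 stood at 8.52 CPM and Plxnd1 at 48.1 CPM in well B12, and Sema6a at 42.6 CPM and Plxnb2 at 80.2 CPM in well C12. For Sema3d, Sema5a, Plxna3 and Plxnd1 the other 4 wells had no count, so any count in 1 well meets the criterion and the rate of 1 in 20 does not apply to them.

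Nrp1 differed between sources. Its log2 fold change of RFP+ over GFP+ cells was higher by 3.51 in spheroids than in the embryo (adjusted p = 0.010 from the edgeR fits over 8195 genes). Nrp1 was higher in GFP+ cells in both sources, and every embryo GFP+ well was above every well of the other 3 groups.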

How the results depend on the processing

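With 5 against 4 embryo wells and many members at a few counts, the number of members called in the embryo depended on the method. It was 2 with edgeR, 4 with DESeq2, 6 without a filter on low counts, 7 with limma voom and 11 with one fit over the 4 groups, and 2 to 4 when each embryo library was left out in turn, the highest without well B12. DESeq2, the study's method, added Plxna1 and Sema5a (DESeq2 adjusted p = 0.0048 and 5.8e-05). Sema3f and Nrp1 were among those called each time. In spheroids 12 became 19 without the filter and 5 beyond a fold change of 1.5, and in GFP+ embryo against spheroid cells 12 became 21 without the filter. Members whose population difference varied with source rose from 1 to 12 with one fit over the 4 groups, which shares the spread between groups and also tests other members; the cause of these changes was not tested. Thinning lowered the median number of members detected from 22 to 19 in spheroid GFP+ and from 23 to 19.5 in spheroid RFP+ libraries. Scaling by the median of ratios moved the median embryo log2 fold change of all genes from 0.09 to -0.04. Over the log2 fold changes of called members given in full, none turned its direction in the alternatives run: 339 values kept their side of the threshold and 11 did not. Sema3e and Plxnc1, called only between sources by edgeR, are not among these values, and Plxnc1 lost its RFP+ call without well G11 or G12. Plxnd1 has no value with the pairs summed, where it fell under the filter. Among members not called in the embryo, Sema3a, Plxna2 and Sema3d pointed to GFP+ cells in edgeR (for Sema3d without the filter, log2 fold change -1.13) and to RFP+ cells on log2(CPM + 2) (1.67, 0.12 and 0.84). Each well name belongs to 1 group, so wells were not paired; with plate row as a covariate 12 members were called in spheroids.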
